A study of Mus musculus with 6 samples.

Results

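Igf2bp1, Igf2bp2 and Igf2bp3 encode the insulin-like growth factor 2 mRNA-binding proteins, a small family of cytoplasmic proteins that bind messenger RNA through RNA recognition motifs and KH domains. They are called oncofetal because Igf2bp1 and Igf2bp3 are made in the embryo, are low in most adult tissues and return in many tumours. They hold their target transcripts in ribonucleoprotein granules, where they affect the stability, transport and translation of the bound RNA, and they can recognise N6-methyladenosine (m6A). Transcripts of the family are known targets of the microRNA let-7, whose precursors are cut by the ribonuclease Dicer.

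The family was examined on Affymetrix 3′ expression arrays of mouse sarcoma cells of strain C57BL6/J grown to confluence. The samples were 3 heterozygous for Dicer and 3 null for Dicer. Members were chosen as all probe sets annotated to exactly 1 of the 3 genes. These were 10 of the 45037 in the deposited table, 4 of Igf2bp1 and 6 of Igf2bp3, for 2 of the 18193 genes named there. Igf2bp2 was not analysed here. Values are log2 intensities after GCRMA, so a difference of 1 is a 2-fold change. Which part of Dicer1 was deleted is not stated in the labels, nor whether the samples of a group are separate clones or cultures, nor which other alleles the tumours carry. The p-values therefore measure the spread between these samples, which may be technical.

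The 10 probe sets were tested with 24385 whose mean over the 6 arrays was at least 3, a level above 78 of 81 probe sets of olfactory, vomeronasal and trace amine receptors. With 3 arrays a group, the number of arrays limits the precision. Of the 10 mesenchymal markers, 9 were tested and Thy1 lay below 3 on average, with Vim at 13.8 in heterozygous and 13.7 in null arrays. None of the 9 was called by limma at its brightest probe set, 3 had an unadjusted p under 0.05, against 24.0% of all tested genes, and 2 had a difference above 0. Those 3 were Pdgfra with a difference of -1.63, S100a4 at -1.37 and Pdgfrb at -1.03 (limma adjusted p = 0.0593, 0.0570 and 0.186). The other Pdgfra probe sets had differences of -2.57 and -2.39 (limma adjusted p = 0.0480 and 0.0671). The less bright probe sets of Pdgfrb and Col1a1 had differences of -1.62 and -2.30 (limma adjusted p = 0.164 and 0.0972). The part of these falls in the results below was not tested. Epithelial Cdh1, the leukocyte antigen Ptprc, endothelial Pecam1, muscle Myod1 and the pluripotency factor Pou5f1 all had group means below 3. Of the 27 markers of such other cell types 6 reached the minimum, among them Krt18, at 9.02 in heterozygous replicate 1 and below 3 in the other 5 arrays, and Cd68 at 5.89 ± 1.07 in heterozygous arrays (SD, n = 3), and 0 were called by limma, with 0 at an unadjusted p under 0.05. Heterozygous replicate 3 stood apart in Mki67, a gene of dividing cells, at 9.21 against 10.89 to 11.46 in the other 5 arrays, and results without it are given with the other arrays left out. Dicer1 itself stood at 8.60, 8.19 and 8.17 in heterozygous and 8.56, 8.40 and 8.42 in null arrays, and a probe set outside the deleted part would not show the deletion.

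The let-7 family, named in the title of the series, shares the seed, bases 2 to 8, with which a microRNA pairs to its targets. Its mature sequences are given because the family's transcripts are among its known targets; no microRNA was measured on these arrays. Of 11 mature let-7 and miR-98 sequences in the RefSeq table (GRCm38.p6), 10 carry the seed GAGGUAG and let-7j alone differs in it. The capitals mark the seed in a set chosen to show the first base, the seed and the 3′ end varying.
let-7a-5p (chr13:48538239-48538260, minus strand): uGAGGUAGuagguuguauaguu
let-7d-5p (chr13:48536078-48536099, minus strand): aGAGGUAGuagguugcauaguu
let-7g-5p (chr9:106178846-106178867, plus strand): uGAGGUAGuaguuuguacaguu
miR-98-5p (chrX:151913229-151913250, plus strand): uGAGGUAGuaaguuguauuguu
let-7j (chr3:140028281-140028304, plus strand): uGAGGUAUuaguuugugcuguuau

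Both measured members rose in the null arrays. Each of the 10 probe sets was called higher in null arrays (limma, Benjamini-Hochberg adjusted p under 0.05), against 1.62% of all tested probe sets called higher. In each of the 10 the 3 null arrays lay above the 3 heterozygous arrays, as did 16.3% of all tested probe sets. The gap between the lowest null and the highest heterozygous array ran from 0.83 to 3.57 on the log2 scale. One probe set of Igf2bp1, 1459825_x_at, reached the minimum for testing only through its null arrays, and the other 9 had heterozygous means of at least 3. In RNA of whole cultures, more expressing cells and more RNA per cell cannot be told apart. Probe sets of a gene share its RNA and are not independent replicates.

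**Figure D1:**
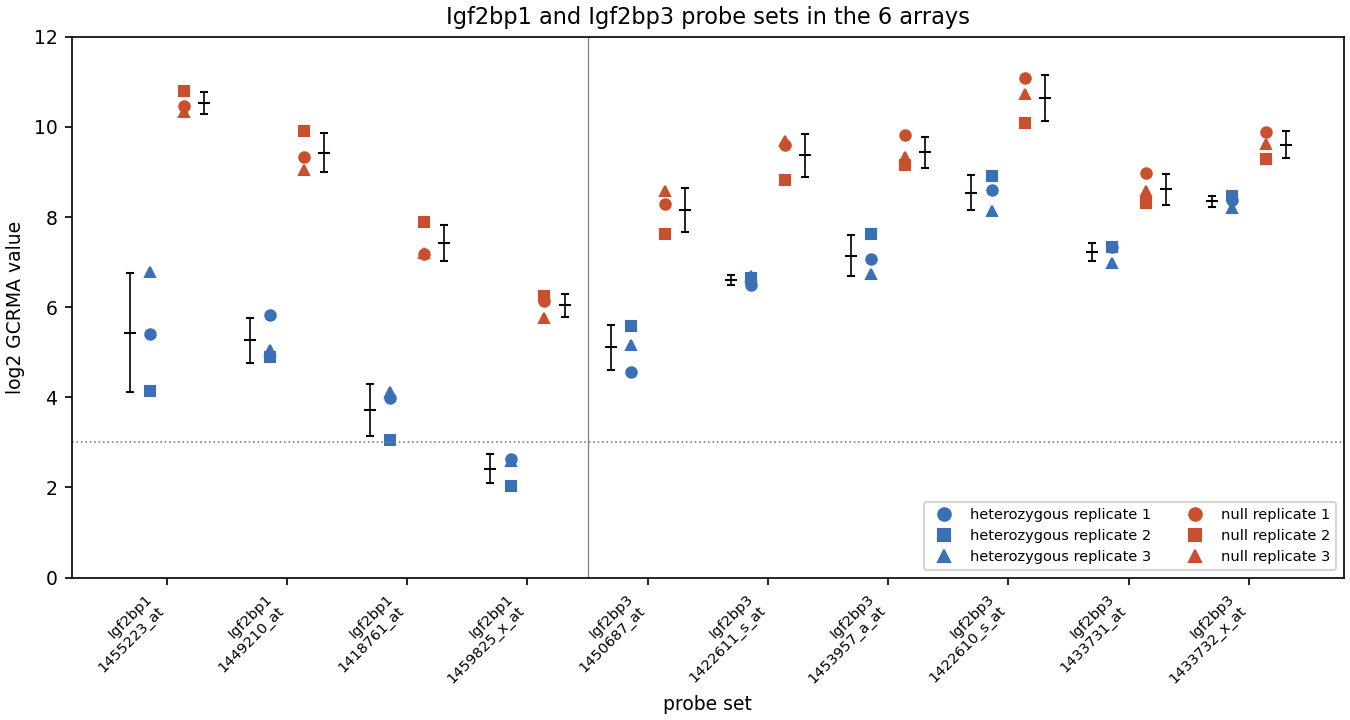
Log2 GCRMA value of each of the 10 probe sets (x axis) in the 6 arrays, with heterozygous arrays in blue and null arrays in red, the marker shape giving the replicate number, black bars the mean and SD of 3 arrays and the dotted line the minimum of 3. In every probe set the null arrays lie above the heterozygous ones, and the heterozygous arrays of 1459825_x_at lie below 3.

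Igf2bp1, known for carrying beta-actin mRNA to the cell edge and for protecting Myc mRNA from decay, had the 8th largest measured rise of 11425 tested genes at its brightest probe set. That probe set, 1455223_at, read 5.40, 4.13 and 6.77 in heterozygous replicates 1, 2 and 3 and 10.46, 10.80 and 10.34 in the null replicates. The null arrays were tightly grouped, while the heterozygous ones spread widely, with replicate 2 lowest and replicate 3 highest. The difference was 5.10 (SE 0.63, 95% interval 3.56 to 6.64; limma adjusted p = 0.0211), a 34.3-fold rise. Without heterozygous replicate 2 the fold was 21.8 and without heterozygous replicate 3 it was 54.5. The call was lost without null replicate 1, 2 or 3 (limma adjusted p = 0.0648, 0.0929 and 0.0873).

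The other Igf2bp1 probe sets had less spread among the heterozygous arrays. For 1449210_at the values were 5.82, 4.90 and 5.06 against 9.34, 9.90 and 9.05, a difference of 4.17 (SE 0.33; limma adjusted p = 0.00908). For 1418761_at, which was designed from the same source sequence, they were 3.99, 3.06 and 4.11 against 7.19, 7.89 and 7.20, a difference of 3.71 (SE 0.35; limma adjusted p = 0.0145). These probe sets put the rise at 18.0-fold and 13.1-fold, below that of the brightest. The x suffix of 1459825_x_at marks probes that may also bind other transcripts, and its heterozygous values of 2.62, 2.04 and 2.58 were at background. Its null arrays read 6.13, 6.25 and 5.76. Set against a log2 value of 3, their mean gives a rise of at least 8.26-fold (difference 3.63 as measured, SE 0.24; limma adjusted p = 0.00708). In all 6 fits that left out 1 array 1449210_at stayed called. So did 1459825_x_at, but it was tested only through its null arrays, so its calls add no support. The probe set 1418761_at stayed called in 4, failing without null replicate 2 or 3 (limma adjusted p = 0.0613 and 0.0585). Taken as the median of its probe sets in each array, Igf2bp1 averaged 4.29 ± 0.61 over the heterozygous and 8.43 ± 0.41 over the null arrays (SD, n = 3 each), with a limma adjusted p of 0.0111.

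Igf2bp3 is known for promoting growth and invasion of tumour cells. Its brightest probe set, 1422610_s_at, read 8.59, 8.91 and 8.13 in heterozygous and 11.08, 10.08 and 10.74 in null arrays. The groups did not overlap, and null replicate 2 came nearest to the heterozygous arrays. The difference was 2.09 (SE 0.33, 95% interval 1.30 to 2.88; limma adjusted p = 0.0356), a 4.26-fold rise and the 142nd largest. It was called in none of the 6 fits without 1 array, where the difference stayed between 1.87 and 2.37 and the limma adjusted p ran from 0.0503 to 0.131.

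The other probe sets of Igf2bp3 ranged widely in the size of the rise. Of those with the same source sequence as the brightest, 1450687_at read 4.57, 5.58 and 5.17 against 8.28, 7.62 and 8.57, a difference of 3.05 (SE 0.35; limma adjusted p = 0.0188). For 1422611_s_at the values were 6.49, 6.64 and 6.70 against 9.60, 8.82 and 9.68, a difference of 2.76 (SE 0.27; limma adjusted p = 0.0150). Its heterozygous arrays were within 0.21 of each other. From a second source, 1453957_a_at read 7.06, 7.63 and 6.74 against 9.81, 9.16 and 9.33, with a difference of 2.29 (SE 0.30; limma adjusted p = 0.0229). The smallest rises came from the 2 probe sets of a further source. For 1433731_at the values were 7.33, 7.34 and 6.99 against 8.98, 8.30 and 8.57 (difference 1.40, SE 0.23; limma adjusted p = 0.0391), and for 1433732_x_at 8.37, 8.46 and 8.21 against 9.89, 9.29 and 9.63 (1.26, SE 0.21; limma adjusted p = 0.0386). As folds the 6 probe sets spanned 2.39 to 8.28. Neither of the last pair was called in any fit that left out 1 array, while 1422611_s_at was called in 4 of 6, 1453957_a_at in 3 and 1450687_at in 2. Taken as the median of its probe sets in each array, Igf2bp3 averaged 7.18 ± 0.31 over the heterozygous and 9.39 ± 0.37 over the null arrays (SD, n = 3 each), with a limma adjusted p of 0.0185.

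**Figure D2:**
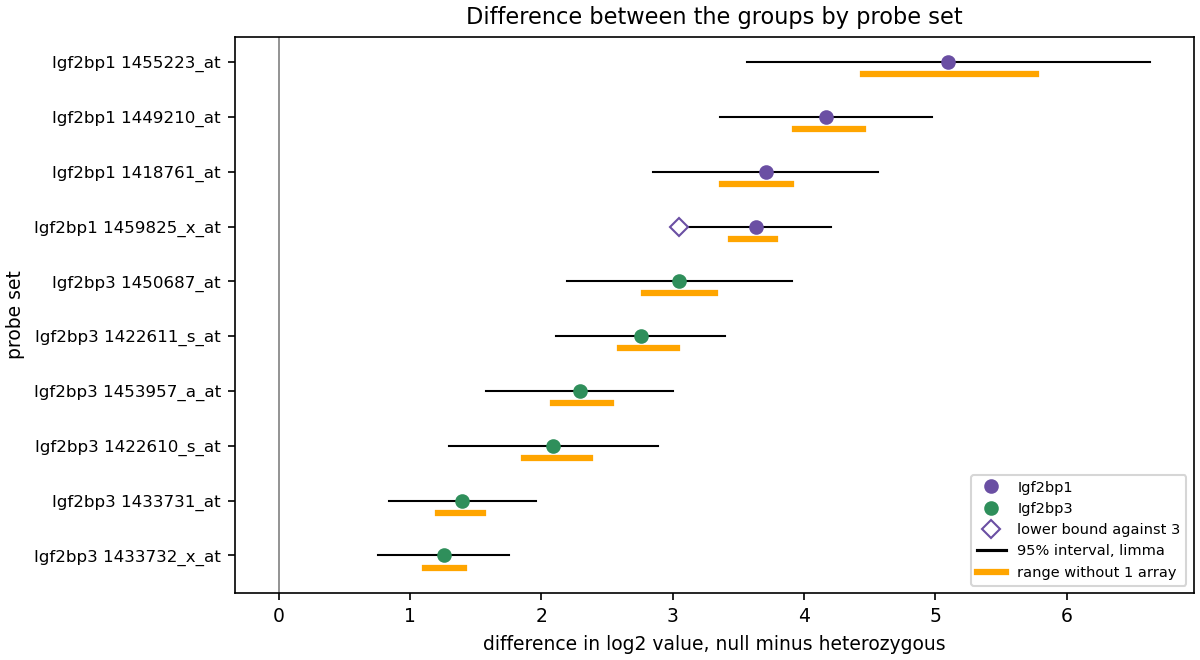
Difference in log2 value between null and heterozygous arrays (x axis) for each probe set (y axis), as a point with limma's 95% interval in black and the range over the 6 fits without 1 array in orange; the open diamond is the lower bound against 3 for 1459825_x_at, whose heterozygous arrays were at background. The other 3 Igf2bp1 points lie between 3.71 and 5.10 and the 6 Igf2bp3 points between 1.26 and 3.05, and the bound of 1459825_x_at is also 3.05.

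Over the whole family the number of called probe sets was 10 with all arrays. It was 7 without heterozygous replicate 1 or 3, 5 without heterozygous replicate 2, and 4, 3 and 2 without null replicates 1, 2 and 3. The number called over all probe sets, in either direction, was 756 with all arrays. It was 501, 107 and 857 without heterozygous replicates 1, 2 and 3, and 199, 44 and 61 without null replicates 1, 2 and 3. In these fits every one of the 10 differences stayed above 1.1.

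The rise of Igf2bp1 was larger than that of Igf2bp3 by 3.01 (95% interval 0.04 to 5.98) at the brightest probe sets. The log2 value of Igf2bp1 minus that of Igf2bp3 was -3.19, -4.78 and -1.36 in heterozygous and -0.62, 0.72 and -0.40 in null arrays. With medians of probe sets the excess was 1.93 (95% interval 0.08 to 3.77). These groups did not overlap. A two-sided exact permutation test gave p = 0.1, the smallest that this test can give with 3 arrays against 3. Both intervals lie above 0, but they assume normal errors and an equal spread in the groups. At the brightest probe sets the SD was 1.71 in heterozygous and 0.72 in null arrays. Both versions of this contrast had the same p, and it was 0.1 after adjustment over the 2. Within Igf2bp3, the mean of the 3 probe sets from the source of the brightest minus that of the pair with the smallest rise was -1.30, -0.86 and -0.93 in heterozygous and 0.22, 0.05 and 0.56 in null arrays. The rise thus depended on the probe set by 1.31 on the log2 scale, a contrast chosen for its size and given with no test.

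In replicate 2 of each group the members deviated in opposite directions. Igf2bp1 was highest in null replicate 2 in 4 of 4 probe sets, and Igf2bp3 was lowest in that array in 6 of 6. Among the heterozygous arrays, replicate 2 was the lowest for Igf2bp1 in 4 of 4 probe sets and the highest for Igf2bp3 in 5 of 6. The median deviation from the group mean in null replicate 2 was 0.36 for Igf2bp1 and -0.43 for Igf2bp3, and in heterozygous replicate 2 it was -0.52 and 0.24. These median deviations are smaller than the differences between the groups. They are given as a description of 6 arrays, with no test.

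**Figure D3:**
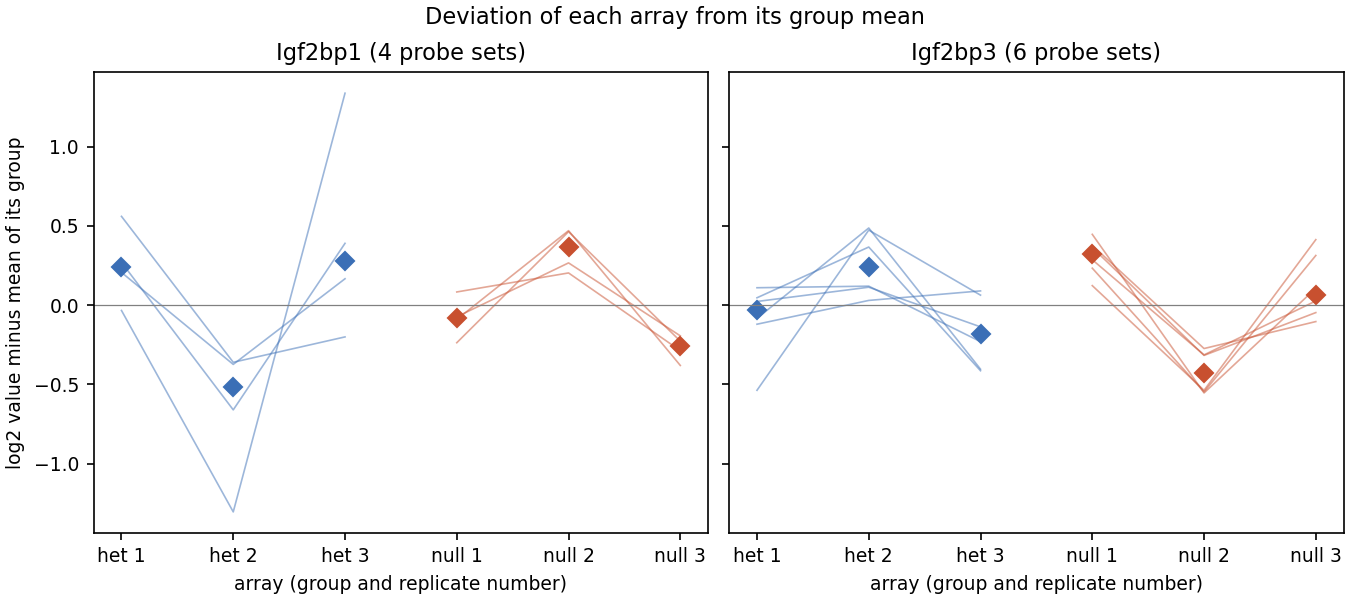
Log2 value of each array minus the mean of its own group (y axis), by array (x axis), for the 4 probe sets of Igf2bp1 (left) and the 6 of Igf2bp3 (right); thin lines join the arrays of a probe set and diamonds are the medians. Replicate 2 of the null group is high for Igf2bp1 (0.36) and low for Igf2bp3 (-0.43).

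The genes whose values lay closest to those of each member were found by the root mean square distance between profiles, each centred on its mean, over the 6 arrays. This distance includes the difference between the groups, so genes near a member share its rise by construction. Of the 10 genes found, 10 were higher in all null than in all heterozygous arrays. Nearest to Igf2bp1 were Arhgap6, a GTPase-activating protein, at 0.31, and Clec1a, a C-type lectin receptor, at 0.40. Apobr, an apolipoprotein B receptor, followed at 0.82, the schlafen gene Slfn2 at 0.95 and the scaffold gene Grip1 at 0.96. In heterozygous arrays Grip1 was at background, at 2.63, 2.23 and 2.44, and Slfn2 near it, at 3.36, 2.38 and 3.23. The distances of these genes therefore rest partly on background values. Arhgap6 read 5.40, 3.71 and 7.20 in heterozygous and 10.17, 10.32 and 10.12 in null arrays, so it shared the spread of 1455223_at, with heterozygous replicate 2 low and replicate 3 high. Nearest to Igf2bp3 were Lpar2, a receptor for lysophosphatidic acid, at 0.20, the R-spondin receptor gene Lgr6 at 0.25 and Rbp4, the plasma carrier of retinol, at 0.26. LTO1 was at 0.29 and Elf4, an ETS transcription factor, at 0.30. Lpar2 read 5.39, 5.49 and 5.19 against 7.61, 7.03 and 7.37, with null replicate 2 lowest as in Igf2bp3. The distance between Igf2bp1 and Igf2bp3 themselves, which were left out of the search, was 1.85, larger than those of the genes named. It carries their unlike differences of 5.10 and 2.09.

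**Figure D4:**
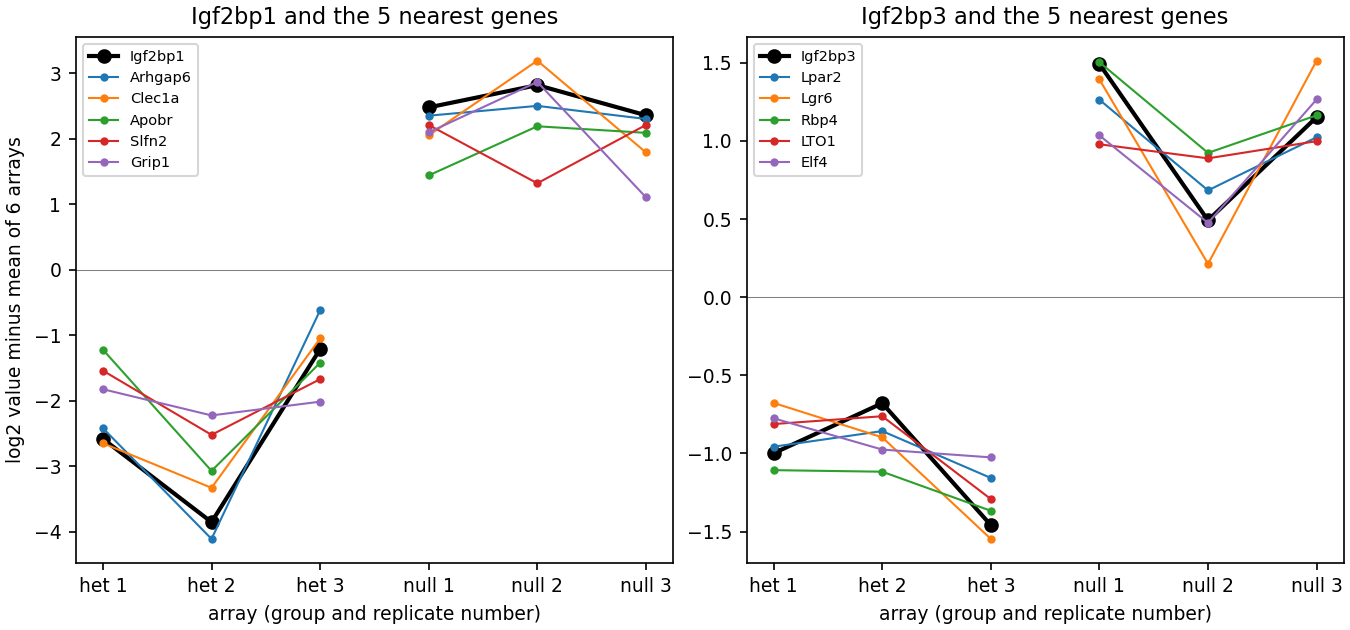
Log2 value minus the mean of the 6 arrays (y axis) by array (x axis) for the brightest probe sets of Igf2bp1 (left) and Igf2bp3 (right), in black, and the 5 genes with the smallest root mean square distance from each. Lines join arrays of the same group; Arhgap6, at a distance of 0.31, follows the spread of the heterozygous values of Igf2bp1.

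Genes were grouped into 5 lists by role or shared domain, each gene taken at its brightest tested probe set. The lists hold mRNAs bound by the family, granule proteins, m6A factors, let-7 maturation genes and other KH domain proteins. Not all of these genes are known to act with the family. Together 85 of their 103 genes were tested, and 1 rose and 1 fell in limma's test, against 3.46% of all tested genes called in either direction. The lists' share is no higher than that background. At an unadjusted p under 0.05 there were 14 of the 85, against 24.0%. The median difference over these 85 genes was 0.06, and over all tested genes it was -0.01.

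Of 17 tested messenger RNAs that the family is known to bind, 1 rose and 1 fell, with a median difference of 0.06 and 10 above 0. The 2 calls are 11.8% of the list, against 3.46% of all tested genes. In 8 of the 17 the unadjusted p was under 0.05, which is 47.1% against 24.0% of all tested genes. In 8 of them the groups did not overlap, against 32.2% of all tested genes. Abcb1a, the drug efflux pump, whose mRNA Igf2bp1 is known to stabilise, read 6.95, 5.72 and 6.81 in heterozygous and 2.05, 2.60 and 1.57 in null arrays. It fell at least 11.3-fold, to values below 3 (limma adjusted p = 0.0144), and its other probe set fell at least 6.48-fold, to values below 3 as well (limma adjusted p = 0.0356). In both, heterozygous replicate 2 was the lowest of its group, as it was for Igf2bp1. Between the groups, however, Abcb1a fell where Igf2bp1 rose, and a link between these genes was not tested. Without null replicate 2 or 3 the first of these probe sets was not called (highest limma adjusted p = 0.0561), and the other was called in 1 of 6 such fits. Ccnd3, a D-type cyclin, read 10.04, 10.47 and 9.95 against 11.68, 11.27 and 11.58, a rise of 1.36 (SE 0.21; limma adjusted p = 0.0358). It was called in none of the 6 fits without 1 array (limma adjusted p = 0.0533 to 0.136).

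The best-known targets showed no call. Actb, beta-actin, differed by 0.04 (SE 0.16; limma adjusted p = 0.900), Myc by 0.09 (SE 0.28; limma adjusted p = 0.876) and Cd44, the hyaluronan receptor, by 0.06 (SE 0.15; limma adjusted p = 0.836). Igf2, which gave the family its name, lay below 3 in every array, with its brighter probe set at 2.21, 2.13 and 2.15 against 2.59, 2.34 and 2.32. Lin28b, which blocks let-7 maturation, was at background as well, between 1.16 and 1.58. Hmga2, itself a let-7 target, differed by 0.48 (SE 0.18; limma adjusted p = 0.182). Its other tested probe sets differed by 0.66 and 0.40 (limma adjusted p = 0.166 and 0.245). The laminin chain gene Lamb2 and cyclin D1, Ccnd1, came nearest among the rest, at -1.55 and 0.67 (limma adjusted p = 0.0801 and 0.0894). The other Ccnd1 probe sets differed by 1.40 and 1.11 (limma adjusted p = 0.217 and 0.213). Next came Gap43, a growth cone protein, which was at least 1.39-fold lower in null arrays, where it lay below 3 (limma adjusted p = 0.116).

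**Figure D5:**
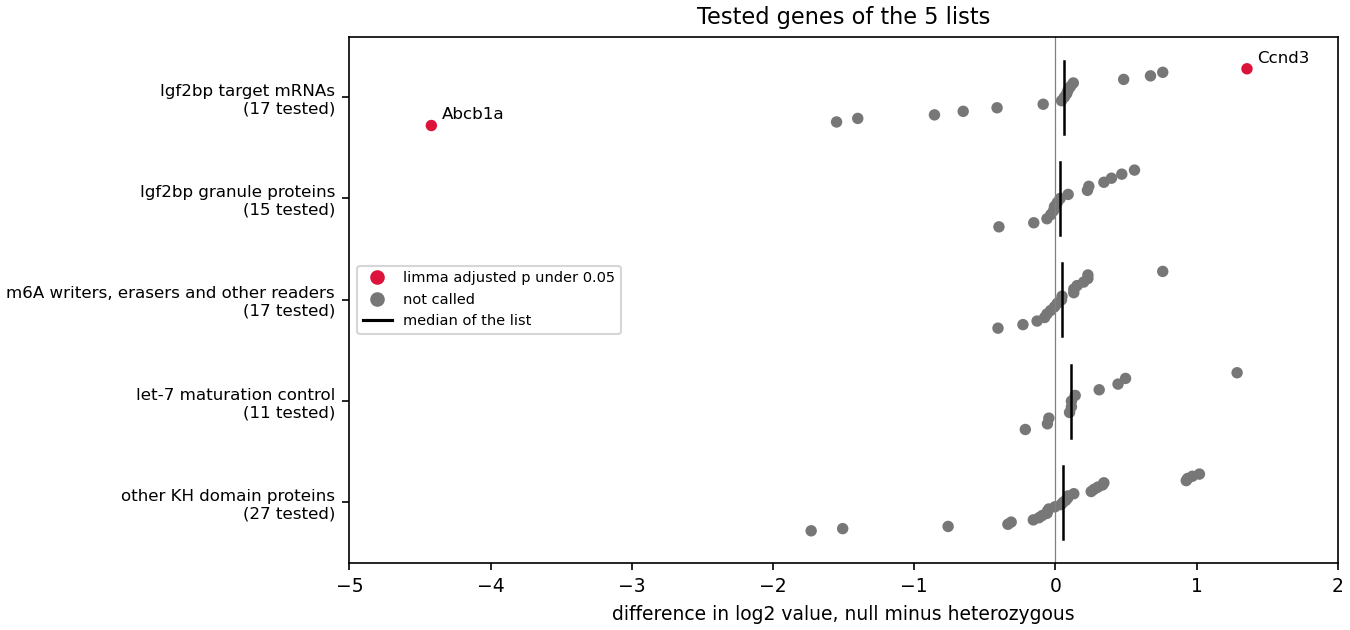
Difference in log2 value between null and heterozygous arrays (x axis) for each tested gene of the 5 lists (y axis), in red where limma's adjusted p was under 0.05, with the median of each list as a black line. Abcb1a and Gap43 are drawn as measured, though their null arrays lie below 3. Only Abcb1a and Ccnd3 are called, and the medians lie between 0.03 and 0.11.

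Proteins found with the family in granules showed 0 calls among 15 tested in limma, against 3.46% of all tested genes. At an unadjusted p under 0.05 there were 0, against 24.0%, and the median difference was 0.03. At the brightest probe sets their differences ran from -0.40 for Pabpc4, a poly(A)-binding protein, to 0.56 for Hnrnpd, an AU-rich element binding protein (limma adjusted p = 0.232). Ybx1, the cold shock protein that is a core granule component, differed by 0.01, and the RNA-binding protein Elavl1 by 0.47 (limma adjusted p = 0.404). The other tested probe sets of Hnrnpd differed by 1.67 and 0.76 (limma adjusted p = 0.0535 and 0.275), the first with an unadjusted limma p of 0.0019. Those of Elavl1 differed by 0.82, 0.35, 0.16 and -0.07 (lowest limma adjusted p = 0.0924). The counts above therefore hold only for the brightest probe sets.

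The m6A writers, erasers and other readers likewise showed 0 calls among 17 tested in limma, against 3.46% of all tested genes. At an unadjusted p under 0.05 there were 0, against 24.0%, and the median was 0.04. Mettl3, the catalytic subunit of the main writer, differed by -0.13 and its partner Mettl14 by -0.06. The widest differences were those of Mettl16, a writer of its own, at 0.76 (limma adjusted p = 0.275) and Virma, a subunit of the main writer, at -0.41 (limma adjusted p = 0.345). The other tested Virma probe set differed by 0.28.

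Among the genes that control let-7 maturation 0 of 11 tested were called in limma, against 3.46% of all tested genes. At an unadjusted p under 0.05 there was 1, against 24.0% of all tested genes. That gene, Tut4, a terminal uridylyl transferase that acts on let-7 precursors with Lin28, read 5.77, 6.75 and 6.76 against 7.37, 8.16 and 7.61 (difference 1.29; limma adjusted p = 0.101). The other tested Tut4 probe sets differed by only 0.07, -0.21 and 0.09. Dis3l2, the nuclease that degrades the uridylated precursor, differed by 0.44 (limma adjusted p = 0.245). Its other tested probe set, near background, differed by -0.35. The Dicer partner Tarbp2 differed by 0.31 (limma adjusted p = 0.344). Lin28a lay at background, at a group mean of 1.58 in heterozygous and 1.55 in null arrays. Dicer1 differed by 0.14 and, at its other tested probe set, by 0.27 (limma adjusted p = 0.693 and 0.573).

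Other proteins with KH domains showed 0 calls among 27 tested in limma, against 3.46% of all tested genes. At an unadjusted p under 0.05 there were 5 (18.5%), against 24.0%, and the median was 0.05. Mex3a, an RNA-binding ubiquitin ligase, came nearest, at 7.93, 8.41 and 8.03 against 9.29, 9.11 and 9.03 (difference 1.02; limma adjusted p = 0.0512). Its paralog Mex3b had a difference of -1.73 (limma adjusted p = 0.148). The ribosome assembly factor Pno1 and the far upstream element binding protein Fubp1 had differences of 0.97 and 0.93 (limma adjusted p = 0.0908 and 0.101). The other Fubp1 probe sets differed by 1.65, 0.47 and 0.22 (lowest limma adjusted p = 0.0941).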

How the data were processed

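Total RNA of 6 samples was hybridised to 3′ arrays, per the labels' protocols. The authors deposited log2 values per probe set; R 2.11.1 and GCRMA 2.20.0 were used, per the submitters' processing notes. The log2 scale is read from the range of values, 0.40 to 14.18. GCRMA corrects background by probe sequence and normalizes quantiles between arrays, so an overall shift in RNA amount is removed and low values depend on its background model. GCRMA's settings: not given in the sources used here.

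Groups were taken from the titles. The platform annotation ties 34945 of 45037 probe sets to 1 symbol and gave the names; by Entrez ID, 34741 of these were found among the genes of GRCm38.p6. Probe sets with a mean of at least 3 were tested, two-sided, with limma 3.58.1 (lmFit and eBayes, no block) in R 4.3.3, with Benjamini-Hochberg adjustment over all 24385 at a threshold of 0.05. The fit was tested on simulated data. Contrasts between members used exact permutation over arrays, with ordinary intervals at 4 residual degrees of freedom. Where a group lay below 3 on average, the fold is a bound against 3 and written "at least". Distances between profiles used 1 probe set a gene, the brightest tested. Named were all family probe sets, the called genes of each list, up to 3 others with the smallest p and the best-known targets. So were the 5 genes nearest to each member, with Riken, predicted and family genes skipped. Of each list the text gives some of those. The members and lists were chosen with earlier results of these data known. Alternatives were other minimums, quantile normalization again, centring, trend, robust, ordinary t, weighting of arrays, a block by replicate number, medians over probe sets, a floor at 3 and each array left out. Figures used matplotlib 3.10.9.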

Additional observations from a re-analysis of the deposited data

How the results depend on the processing

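The floor at 3 was chosen after seeing the data; the other settings were planned. Igf2bp1 (difference 5.10) and Igf2bp3 (2.09) kept their direction in every alternative run and stayed called by limma with other minimums, no minimum, quantile normalization, centring, trend, robust, array weights and medians over probe sets. With array weights, where heterozygous replicate 2 had a weight of 14.5 and the other arrays 0.241 to 1.26, the difference was 6.29 for Igf2bp1, a 78.2-fold rise in place of 34.3-fold, and 1.86 for Igf2bp3. Ordinary t statistics, which leave the differences of 5.10 and 2.09 as they are, ended both calls (adjusted p 0.121 and 0.132 in limma's model), called 0 of the 10 family probe sets (10 at an unadjusted p under 0.05) and 0 genes of the 5 lists (16). With these statistics 0 of all 24385 tested probe sets were called. The same-numbered arrays deviated together at correlations of -0.06, 0.11 and 0.24, and differently numbered ones at -0.265 to 0.221. With 3 arrays a group these values cannot decide whether the numbers mark pairs. The main fit does not take them as pairs. In the fit with a replicate block the differences were again 5.10 and 2.09 (limma adjusted p 0.0719 and 0.0898). There 2 family probe sets were called, 1449210_at and 1459825_x_at of Igf2bp1, the latter tested only through its null arrays. With this block 0 list genes and 116 of all probe sets were called. Array weights called 17 of 85 genes of the lists in place of 2, and 6875 of all probe sets (28.2%) in place of 756; the cause was not tested. Without 1 array the difference was 4.45 to 5.77 for Igf2bp1, 1.87 to 2.37 for Igf2bp3 and 2.18 to 3.88 between them, with 2 to 7 family probe sets and 0 to 1 list genes called. The contrast between members was 3.03 with quantile normalization and, with the floor, 3.01 at the brightest probe sets and 1.93 with medians, each at an exact permutation p of 0.1; centring cancels in it, and it was not rerun with weights or a block. Signal over background limits 1459825_x_at, whose difference of 3.63 was 3.05 with the floor.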

Other observations

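The genes beside Igf2bp1 and Igf2bp3 on their chromosomes, chosen after the members' values were seen, were read at the nearest 3 tested protein-coding genes on each side in the order of the GRCm38.p6 gene table. Of these 12 genes 1 was called by limma, against 3.46% of all tested genes, and their differences ran from -0.66 to 1.25. The called gene, Zfp652, a zinc finger protein near Igf2bp1 on chromosome 11, averaged 5.89 ± 0.36 over the heterozygous and 7.14 ± 0.11 over the null arrays (SD, n = 3 each), with a limma adjusted p of 0.0449. It was called in none of the 6 fits without 1 array (limma adjusted p = 0.0660 to 0.158), and its other tested probe sets differed by 0.17 and 0.18. The gene next to Igf2bp1 with a tested probe set on the far side, Snf8, a subunit of an endosomal sorting complex, differed by -0.29 (limma adjusted p = 0.389). Beside Igf2bp3 on chromosome 6, the splicing regulator Tra2a differed by 0.08 (limma adjusted p = 0.805) and Malsu1, a mitochondrial ribosome assembly factor, by -0.02 (limma adjusted p = 0.974).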
